A study of Mus musculus with 14 samples.

Results

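Oxidative phosphorylation uses 5 protein complexes of the inner mitochondrial membrane. Complexes I to IV pass electrons from NADH and succinate to oxygen and all but complex II pump protons, and complex V uses the returning protons to make ATP. Most subunits are encoded in the nucleus, and in activated T cells the pathway is known to supply ATP and to reoxidise NADH. The genes described here are those whose symbol starts with Nduf, Sdha to Sdhd, Uqcr, Cox4 to Cox8 or Atp5, off the interval of chromosome 4 from 121.3 to 131.6 Mb (GRCm38) around the deleted Argonaute genes, with at least 10 reads over 14 libraries. The table of 22598 genes held 97 such symbols, and 90 met the rule. Complex I had 35 of them, complex II 4, complex III 8, complex IV 14 and complex V 16. The other 13 carry the prefixes but encode assembly factors or other non-subunits: Ndufaf1 to Ndufaf8, Sdhaf2 to Sdhaf4, Cox7a2l and Atp5s. Ndufa4, named for complex I, was counted with complex IV, where its protein is found. Ndufs5 was left out because it lies in the chromosome 4 interval. Cox4i2, Cox7b2, Cox8b, Cox8c and Sdhaf1 had 0 reads in all libraries and Ndufa4l2 had 1.

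RNA was sequenced in paired ends from CD4 T cells of C57BL/6J mice that had been sorted from the spleen as naive cells, activated and polarized towards the Th2 type in culture. The groups were knockout (KO) of Ago1, Ago3 and Ago4 at day 7 (n = 4), wild type (WT) at day 7 (n = 4), KO at day 14 (n = 3) and WT at day 14 (n = 3). The design text calls the mice littermates and gives no Cre or cell-type restriction for the deletion, and both genotypes share the strain and the culture. The later time is named as day 14 in the sample labels and also as day 15 in the design text. Whether replicate libraries are separate mice or cultures is not stated, so a p-value here reflects the scatter among these libraries, which could be technical.

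Each library held 23326248 to 35803197 counted reads. All 9 CD4 T cell markers had reads in every group, and they summed to 6354 to 9221 CPM in KO and 5203 to 6027 CPM in WT at day 7, and to 6136 to 7678 CPM in KO and 5549 to 6059 CPM in WT at day 14. Markers of myeloid and dendritic cells (8 genes) summed to 184 to 462 CPM in KO and 93.4 to 169 CPM in WT at day 7, with Itgam and Itgax at 0, and to 381 to 525 CPM in KO and 310 to 454 CPM in WT at day 14. Mast cell and basophil markers summed to 47.0 to 82.2 CPM in KO and 30.5 to 64.6 CPM in WT at day 7. At day 14 they summed to 22.5 to 130 CPM in KO and 1.07 to 5.69 CPM in WT. Ms4a2 and Mcpt8 were at 0 in every group, and Fcer1a was at 0 in KO at day 14. Lists for CD8 T cells, B cells, natural killer cells, erythroid cells, muscle and brown fat summed to at most 24.6 CPM in any library. The 5 Th2 markers summed to 2114 to 4834 CPM in KO and 6140 to 8151 CPM in WT at day 14, and to 1821 to 2906 CPM in KO and 2863 to 3373 CPM in WT at day 7. These sums follow a minority of the list. At each day 4 of the 5 had a positive log2 fold change of KO over WT (medians 0.09 at day 7 and 0.24 at day 14). With each library's trend over coding length removed, as described below, these medians were -0.05 and -0.08. In the fit with no trend removed, 1 of the 5 was lower at day 14 at an adjusted p under 0.05 by edgeR. There 1.42% of all genes passed in either direction. The part of these cell types in the results below was not tested. In bulk RNA, fewer cells of a type and less RNA per cell cannot be told apart.

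Some members had few reads, and in 6 of them nearly all of the coding sequence also lies at other loci. Of the 90 members, 34 shared at least 1 coding stretch of 50 bases with another annotated locus, and in 64 of 67 such pairings that locus was a processed pseudogene. For 6 members at least 90% of the stretches were shared. These were Atp5g1, Atp5g2 and Atp5l of complex V, Cox7c of complex IV, and Ndufab1 and Ndufb4 of complex I, and they had 55 to 204 reads over all 14 libraries. Below 90%, only 3 members had under 300 reads (Cox6a2, Cox6b2 and Cox7a1), and the next most shared member, Uqcrb (72.9%), had 5804. Cycs, which encodes the electron carrier cytochrome c and is no member, had 100% shared stretches and 13 reads. How much of the low counts of these 6 members comes from shared sequence was not tested.

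The subunit c genes differed both in shared stretches and in reads. Atp5g1, Atp5g2 and Atp5g3 encode the same mature rotor-ring protein. Over their last 90 coding bases before the stop codon (GENCODE vM21, GRCm38), Atp5g2 differed from Atp5g1 at 12 positions and Atp5g3 at 17; capitals mark those bases. The genes lie at chr11:96068852-96075670, chr15:102662864-102672352 and chr2:73908447-73911326, all on the minus strand.
Atp5g1: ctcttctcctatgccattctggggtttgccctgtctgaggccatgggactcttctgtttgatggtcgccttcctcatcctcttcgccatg
Atp5g2: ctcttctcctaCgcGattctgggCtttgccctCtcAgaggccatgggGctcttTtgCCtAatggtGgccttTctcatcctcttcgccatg
Atp5g3: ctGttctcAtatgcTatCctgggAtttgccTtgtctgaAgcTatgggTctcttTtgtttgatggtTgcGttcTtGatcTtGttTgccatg
The genes thus differ from each other in this window. Atp5g1 shared 99.7% of its stretches with 3 processed pseudogenes (Gm6612, Gm12337 and Gm10039), and Atp5g2 shared 100% with Gm10175 and Gm10231. Atp5g3 shared 0% and had 121455 reads, against 204 for Atp5g1 and 55 for Atp5g2.

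**Figure D1:**
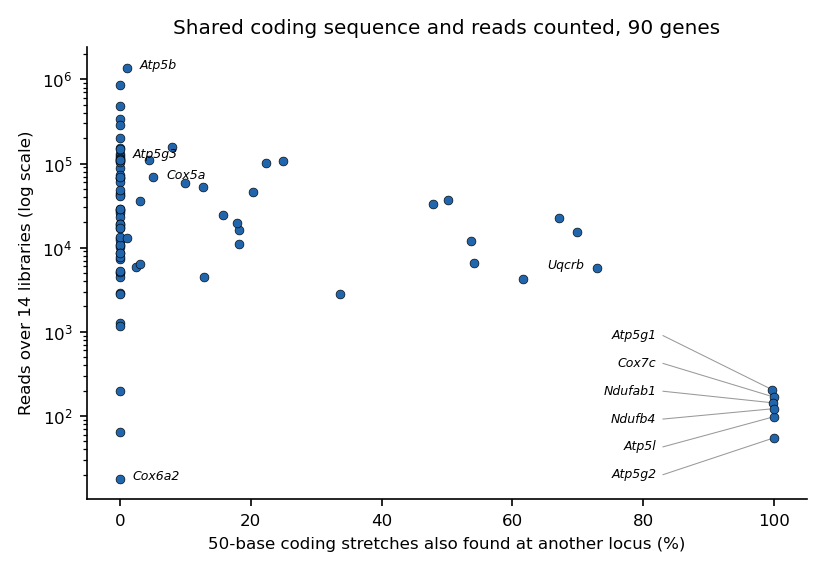
Reads summed over 14 libraries (vertical, log scale) against the percent of 50-base coding stretches that also occur at another annotated locus (horizontal), 1 point per member (90 genes). The 6 members at 90% or more had 55 to 204 reads, and Atp5b, at the top, had 1382381.

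The promoters were read for the letters of known motifs, and a link of these to the fold changes below was not tested. RefSeq (GRCm38.p6) gave 79 windows, from 250 bases before to 50 after the start, for 74 of the 90 members. NRF1, nuclear respiratory factor 1, is a transcription factor known for binding promoters of respiratory genes. Its palindromic core (GCGCA, then any base, then GCGC), searched on both strands, occurred in 26.6% of the members' windows, against 10.4% of the 11620 windows of genes tested and 4.60% of all 32851 windows. The YY1 core AAGATGGCG was found in 10.1% of the members' windows and in 3.10% of those of genes tested. The core of the oestrogen-related receptors, TCAAGGTCA, was found in 2.53% (only 2 windows) and 0.267% (31 windows). Members were below the genes tested for the ETS core CCGGAAGT (6.33% and 8.40%) and the SP1 core GGGCGGGG (19.0% and 32.65%). Matches of different motifs were counted separately, also where they overlapped, and a match is a description of the letters. The 120 bases upstream of both the RefSeq start and the GENCODE gene boundary follow for Sdha, Sdhd and Cox6a1, which hold NRF1 cores in capitals, and for Cox5a and Atp5c1, described below, which hold none in the printed bases. Of the 2 counted Atp5c1 windows, 1 holds a core, outside the bases printed, and the Cox5a window holds 0. They are chr13:74350281-74350400, chr9:50603850-50603969, chr5:115348982-115349101 and chr2:10080511-10080630 (Atp5c1) on the minus strand, and chr9:57521112-57521231 (Cox5a) on the plus strand.
Sdha: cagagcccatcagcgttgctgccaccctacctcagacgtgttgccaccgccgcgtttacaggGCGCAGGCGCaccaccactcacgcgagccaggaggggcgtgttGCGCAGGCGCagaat
Sdhd: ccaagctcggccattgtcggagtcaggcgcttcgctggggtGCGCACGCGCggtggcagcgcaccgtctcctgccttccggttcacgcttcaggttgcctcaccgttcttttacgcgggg
Cox6a1: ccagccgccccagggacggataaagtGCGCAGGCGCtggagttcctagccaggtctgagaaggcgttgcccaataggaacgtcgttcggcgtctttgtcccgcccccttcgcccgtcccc
Cox5a: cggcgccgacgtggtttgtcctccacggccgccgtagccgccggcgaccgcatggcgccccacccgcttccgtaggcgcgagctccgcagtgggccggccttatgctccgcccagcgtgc
Atp5c1: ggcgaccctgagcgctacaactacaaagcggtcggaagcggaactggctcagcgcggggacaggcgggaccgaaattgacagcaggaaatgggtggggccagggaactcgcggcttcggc

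The members were abundant and short. Per kilobase of coding length, their median level over the 14 libraries was 122.8 CPM, against 15.6 CPM for the 11591 genes tested. The 86 members that entered the tests had a median coding length of 445.5 bases, against 1396 for all genes tested, and 83.7% of them were under 1000 bases, against 31.5%. Coding GC content was close, at 52.8% and 53.0%. The highest member per kilobase was Atp5b (2101 CPM), the catalytic beta subunit of ATP synthase. It was followed by Cox4i1 (1626 CPM), a nuclear-encoded subunit of cytochrome c oxidase, and by Atp5a1 (1239 CPM), the alpha subunit. Uqcrc1, a core protein of complex III, stood at 811 CPM, Ndufa13 of complex I at 615 CPM, and Sdhb, the iron-sulfur subunit of complex II, at 574 CPM, all per kilobase. Median levels per kilobase were 196 CPM in complex I, 295 CPM in complex II, 166 CPM in complex III, 108 CPM in complex IV, 167 CPM in complex V and 23.7 CPM among the assembly factors and other non-subunits.

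Where complex IV has alternative subunits, the widely expressed form carried the reads. Cox4i1, Cox6a1, Cox6b1, Cox7a2, Cox7b and Cox8a, the forms of most tissues, averaged between 9.87 CPM (Cox7b, WT at day 7) and 1011 CPM (Cox4i1, KO at day 7) in the group means. Cox6a2 and Cox7a1, the heart and muscle forms, had 18 and 64 reads in all, and Cox8b, another muscle form, had 0. Cox6b2, known as the testis form, had 196 reads. Cox4i2, Cox7b2 and Cox8c were at 0. Over 14 libraries a total of 0 allows up to 3 reads by counting error alone.

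At day 7 nearly all members were higher on average in KO, with small fold changes that did not pass the test singly. Of the 86 tested members, 85 had a positive log2 fold change, against 49.0% of all genes tested, and their median was 0.59, against -0.01. By complex the medians were 0.61 (I), 0.32 (II), 0.76 (III), 0.76 (IV) and 0.63 (V), and 0.46 for the assembly factors and other non-subunits. In 48 members every KO library was above every WT library, a pattern that 9.27% of all genes tested showed, and in 0 members was every KO library below (12.9% of all genes). The genes tested were longer, with a median coding length of 1396 bases against 445.5 in the members. A share for genes of like length is not given here. None was called by edgeR's quasi-likelihood test (0 of 86 at an adjusted p under 0.05), where 0.0949% of all genes were called (11 genes). At an unadjusted p under 0.05 there were 58, against 23.4% of all genes. DESeq2 called 11 members and 4.42% of all genes, and limma-voom with sample weights called 70 members and 43.5% of all genes.

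Cox7a2, a small subunit of complex IV, had 22.2, 19.6, 28.5 and 37.9 CPM in the KO libraries, against 15.3, 13.6, 14.9 and 17.7 CPM in WT. The groups did not overlap, and KO library 4 was highest. Its log2 fold change was 0.82 ± 0.23 (SE; adjusted p = 0.154). Cox5a, a nuclear-encoded structural subunit of complex IV, had 136, 130, 175 and 210 CPM in KO, against 99.2, 95.6, 111 and 126 CPM in WT. The order of libraries was the same in kind, without overlap and with KO library 4 on top (log2 fold change 0.59 ± 0.21, adjusted p = 0.155). Of its coding bases, 25.3% lie in an exon of Gm26631 on the opposite strand, and whether the counting used strand is not known. Atp5c1, the gamma subunit that forms the turning stalk of ATP synthase, had 376, 345, 416 and 455 CPM in KO, against 302, 297, 323 and 339 CPM in WT. Its groups did not overlap but lay close (0.34 ± 0.18, adjusted p = 0.268).

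Complex I, the NADH dehydrogenase and the largest class, gave the same picture. Ndufa13, its most abundant member per kilobase, had 261, 218, 325 and 424 CPM in KO, against 194, 178, 210 and 215 CPM in WT, without overlap (log2 fold change 0.63 ± 0.21, adjusted p = 0.154). Ndufb7, an accessory subunit, had 207, 194, 277 and 357 CPM in KO and 160, 151, 172 and 194 CPM in WT (0.61 ± 0.22, adjusted p = 0.155). Ndufs7, an iron-sulfur subunit, had 407, 356, 473 and 523 CPM in KO, and its lowest KO library met the highest of the 287, 280, 329 and 356 CPM in WT (0.49 ± 0.18, adjusted p = 0.157). Ndufb2, another accessory subunit, was at 0.93 ± 0.30 (adjusted p = 0.154), and 46.0% of its coding bases also lie in an exon of Gm42420 on the same strand. Ndufv1, the flavoprotein subunit that takes electrons from NADH, was at 0.17 ± 0.17 (adjusted p = 0.562), with overlapping libraries. The largest value in the complex, 1.04 ± 0.68 for Ndufab1, rests on 143 reads in all (adjusted p = 0.362).

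The highest fold change of each other complex came mostly from short members. In complex IV it was Cox6b2, with 3, 4, 3 and 16 reads in KO and 1, 5, 2 and 1 in WT (1.74 ± 0.81, adjusted p = 0.211). In complex III it was Uqcrh, the hinge protein, with 40.4, 37.9, 60.9 and 104 CPM in KO, against 30.8, 28.0, 31.4 and 33.6 CPM in WT (log2 fold change 0.97 ± 0.29, adjusted p = 0.154). In complex V it was Atp5mpl, a small proteolipid, with 6.41, 5.14, 7.55 and 14.6 CPM in KO and 4.29, 3.64, 4.34 and 4.43 CPM in WT (1.01 ± 0.32, adjusted p = 0.154). Neither gene overlapped between groups, and KO library 4 was again highest in both. In complex II it was Sdhb (0.51 ± 0.19, adjusted p = 0.155), with a mean of 585 ± 130 CPM in KO and 410 ± 43.0 CPM in WT (SD, n = 4 each). At the other end were the long members. Ndufs1, the largest iron-sulfur subunit of complex I, had 51.2, 96.7, 71.3 and 53.1 CPM in KO and 88.4, 95.8, 58.7 and 74.8 CPM in WT. It overlapped between groups and was the single member with a negative log2 fold change (-0.22 ± 0.46, adjusted p = 0.798). Sdha, the flavoprotein of complex II that oxidises succinate, was at 0.05 ± 0.23 (adjusted p = 0.908) and Atp5a1 at 0.09 ± 0.14 (adjusted p = 0.726).

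**Figure D2:**
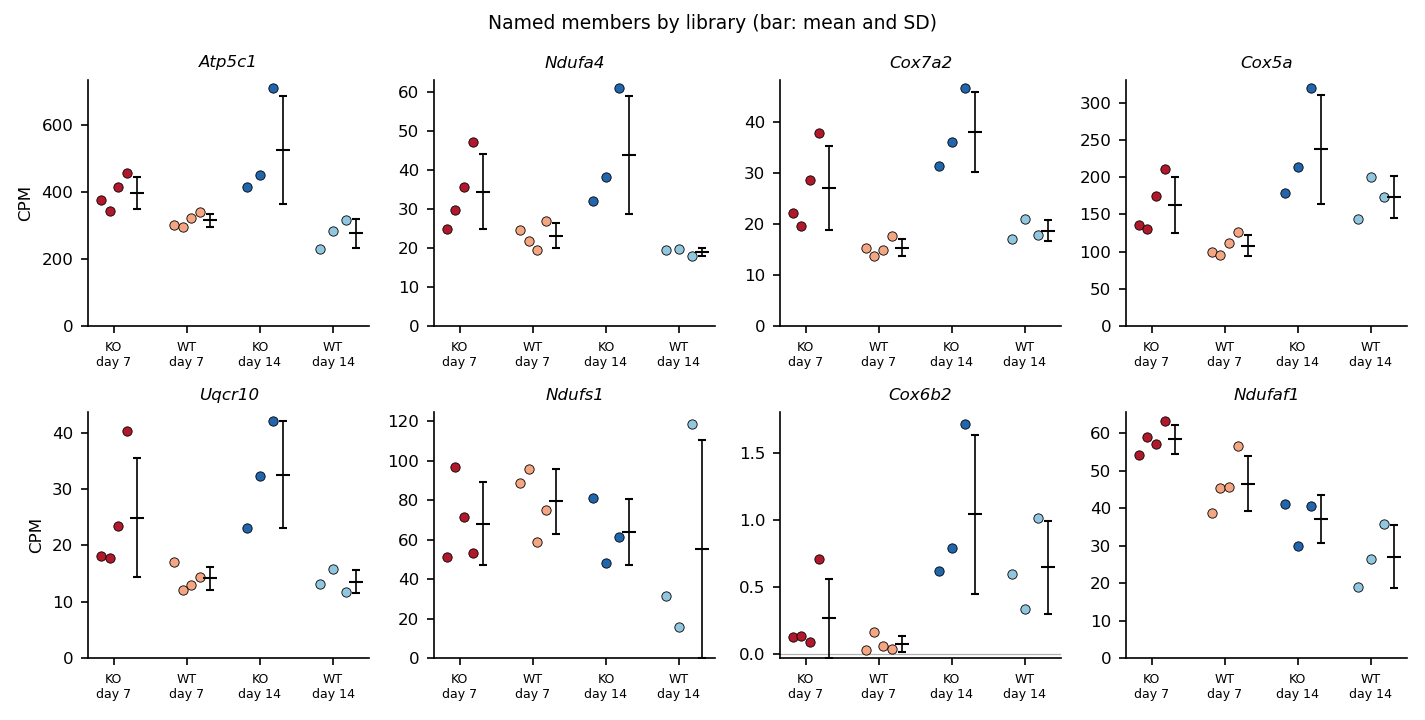
CPM (vertical) of 8 named members in each library, by group, with the group mean and SD as a bar to the right of the points (n = 4 at day 7, n = 3 at day 14). Scales differ between panels. KO library 3 at day 14 was highest of all 14 libraries for Atp5c1 (710 CPM) and Cox5a (319 CPM), and Ndufs1 in WT library 3 at day 14 was at 119 CPM.

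The libraries differed in the members' level within each KO group. The median deviation of the tested members from their mean over all libraries was -0.03, -0.10, 0.29 and 0.71 (log2) in the KO libraries at day 7, against -0.36, -0.45, -0.30 and -0.18 in WT. At day 14 it was 0.14, 0.15 and 0.69 in KO, against -0.16, -0.09 and -0.30 in WT. KO library 4 at day 7 and KO library 3 at day 14 thus stood above the others of their groups. The same libraries had the lowest slopes of log2 CPM per doubling of coding length among all 14 (-0.153 and -0.106, against 0.0422 to 0.489 in the other 12), and the part of this in the members' levels was not tested. In the median deviation no WT library reached the lowest KO library of its day. Without KO library 4 the day 7 median log2 fold change was 0.43. As a share of all counted reads, the members made up 1.62% to 2.11% in KO and 1.35% to 1.55% in WT at day 7, and 1.68% to 2.20% in KO and 1.299% to 1.38% in WT at day 14. The names of the deposited tables carry a number taken as the lane and a serial number, which the labels do not explain. The serial number less the lane takes 2 values over the 14 libraries. These are taken here as 2 sequencing runs, which is an inference. Within the first run (4 KO and 3 WT libraries of day 7) 84 of 86 members were higher in KO, with a median difference of 0.53. Within the second (3 KO and 2 WT libraries of day 14) 86 of 86 were, with a median of 0.60.

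**Figure D3:**
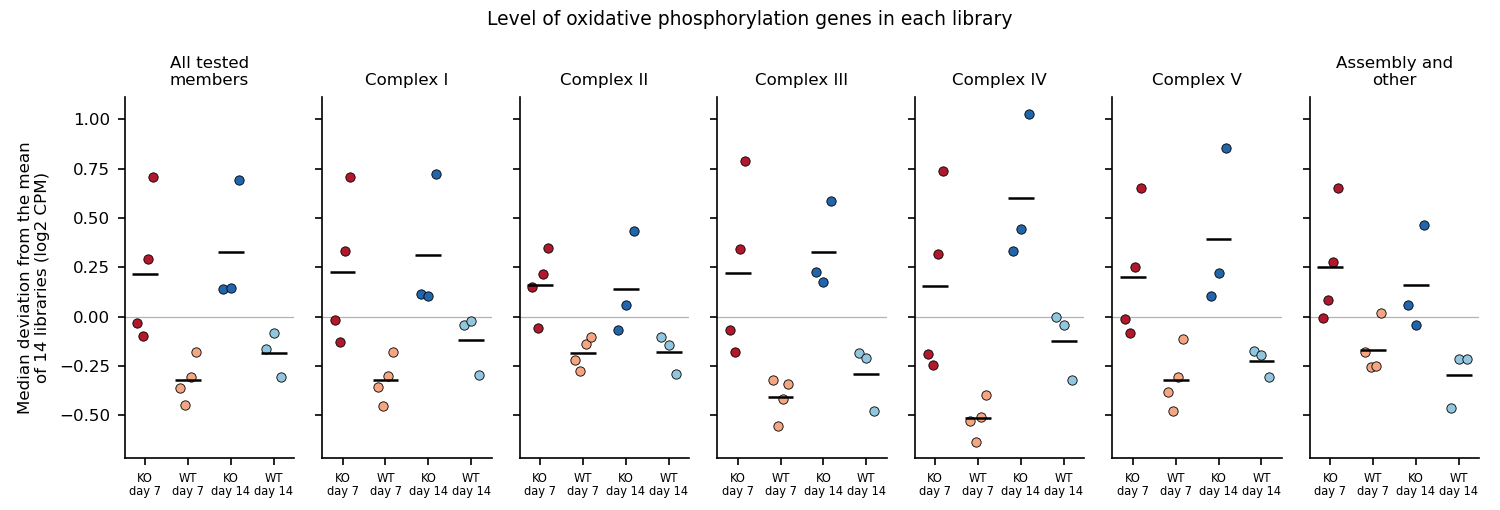
Median deviation of the tested members' log2 CPM from their mean over 14 libraries (vertical), for all tested members and for each complex, 1 point per library with the group mean as a line. All KO points lie above the WT points of the same day in the first panel (-0.10 to 0.71 against -0.45 to -0.18 at day 7).

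Coding length moved with these differences, in members and in other genes alike. At day 7 the Spearman correlation of log2 fold change with coding length was -0.81 over the 86 members and -0.63 over all 11591 genes tested, as a description across genes that share libraries. Members of up to 300 bases had a median of 0.82, against 0.71 for the 199 other genes of that length. Above 300 and up to 500 bases the medians were 0.68 and 0.55, above 500 and up to 1000 bases 0.49 and 0.29, and above 1000 and up to 2000 bases 0.25 and -0.01. Ndufs1, the single member above 2000 bases, stood at -0.22, against -0.52 for the other genes. Over the members' whole length range, the 8454 other genes tested had a median of 0.13 and 61.1% of them were positive. Among the other genes, 94.0% of those up to 300 bases were positive and 93.8% of those above 300 and up to 500 bases. The share was 78.6% above 500 and up to 1000 bases and 48.4% above 1000 and up to 2000 bases. The slope of log2 CPM per doubling of coding length was 0.0755 ± 0.172 in the KO libraries and 0.405 ± 0.1002 in the WT libraries of day 7 (SD, n = 4 each; exact two-sided permutation p = 0.0286, the smallest that 4 against 4 allows, and 0.114 after Benjamini-Hochberg adjustment over 4 comparisons). At day 14 it was 0.0584 ± 0.159 in KO and 0.2999 ± 0.0909 in WT (SD, n = 3 each; exact permutation p = 0.2, where 0.1 is the smallest possible).

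With each library's trend over coding length removed, the day 7 median of the members was 0.09 in place of 0.59. It stood against -0.05 for all genes tested, 70 of 86 were positive, and 0 were called. The medians by complex were 0.11 (I), 0.09 (II), 0.14 (III), 0.07 (IV) and 0.11 (V). Cox7a2 was at 0.13 and Cox5a at 0.05 in that fit. The trend was fitted on all genes tested, the members included, of which 0.0949% were called in that fit.

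**Figure D4:**
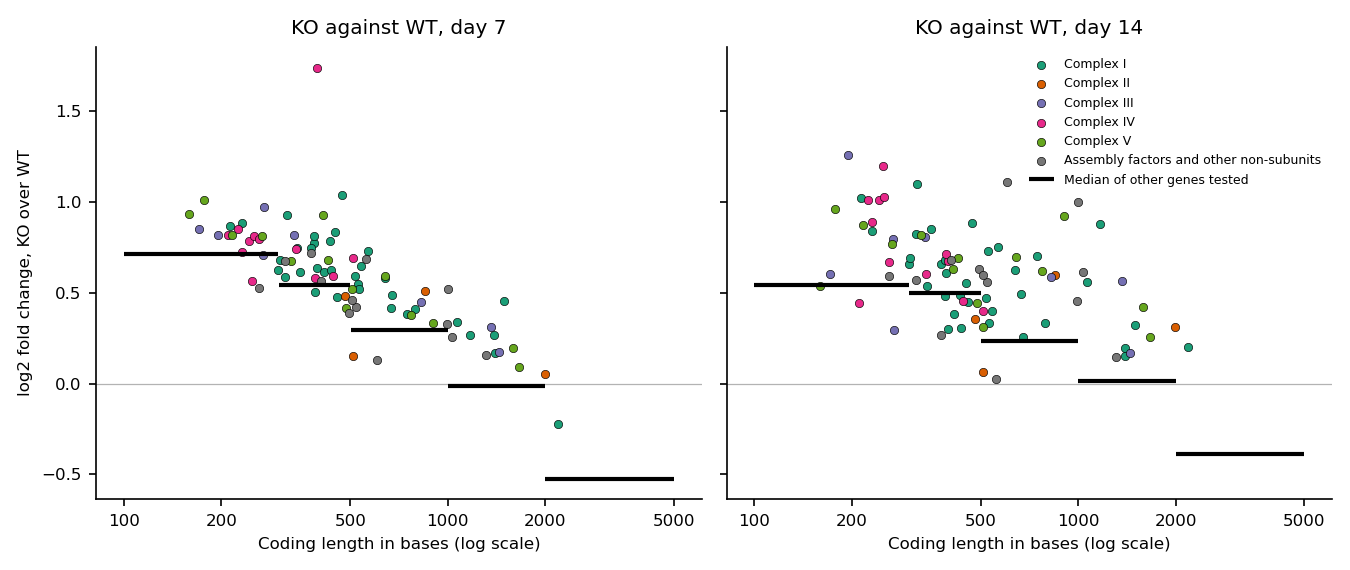
log2 fold change of KO over WT (vertical) against coding length in bases (horizontal, log scale) at day 7 and day 14, 1 point per tested member, coloured by complex. Black lines are the medians of the other genes tested in each length class, which were 0.71 for up to 300 bases and -0.52 above 2000 bases at day 7.

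At day 14 the members were again higher in KO, and 1 passed the test. All 86 tested members had a positive log2 fold change, against 50.6% of all genes tested, with a median of 0.60, against 0.01. The medians were 0.56 (I), 0.33 (II), 0.60 (III), 0.70 (IV) and 0.66 (V), and 0.59 for the assembly factors and other non-subunits. In 48 members every KO library was above every WT library, against 9.71% of all genes, and in 0 every KO library was below (5.25% of all genes). Here too no share for genes of like coding length is given. The test called 1 of 86 members, which was higher, where 1.42% of all genes were called and 0.845% called higher. That share is near the background. An unadjusted p under 0.05 was found for 40 members, against 21.7% of all genes. DESeq2 called 13 members and 8.57% of all genes, and limma-voom with sample weights 16 members and 16.7% of all genes.

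The called member was Atp5c1 (ENSMUSG00000025781, chr2:10056016-10080510, minus strand, protein coding). It had 415, 450 and 710 CPM in KO, against 230, 284 and 316 CPM in WT. The groups did not overlap, and KO library 3 was far above the other libraries. The log2 fold change was 0.92 ± 0.21 (adjusted p = 0.0439). Without KO library 3 it was 0.64 (adjusted p = 0.199), and without WT library 1 or 2 of day 14 the adjusted p was 0.169 and 0.118. The call was also lost without any 1 of the 4 WT libraries or of KO libraries 1 to 3 of day 7 (adjusted p from 0.0571 to 0.0715), with the compared libraries alone (0.457), with the sequencing run as a term (0.0871), and with coding length and GC trends removed (0.290). With the coding length trend alone removed Atp5c1 was at 0.74 (adjusted p = 0.0404).

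In complex I the abundant Ndufa13 had 283, 271 and 398 CPM in KO and 281, 277 and 211 CPM in WT, and the groups overlapped (0.31 ± 0.24, adjusted p = 0.463). Ndufb2 had 30.8, 42.4 and 62.9 CPM in KO, against 21.1, 23.2 and 19.1 CPM in WT, without overlap (adjusted p = 0.102). The smallest adjusted p of a complex I member at day 14 was 0.0651 by edgeR. Sdhc, a membrane anchor of complex II, had 35.2, 62.5 and 54.7 CPM in KO and 52.8, 54.9 and 38.3 CPM in WT (0.06 ± 0.23, adjusted p = 0.903).

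Several members stood near the threshold. Ndufa4, which is found in complex IV, had 32.1, 38.3 and 60.9 CPM in KO, against 19.5, 19.7 and 17.9 CPM in WT. The lowest KO library was well above the highest WT library (log2 fold change 1.201 ± 0.28, adjusted p = 0.0516). Cox7a2 had 31.3, 36.1 and 46.5 CPM in KO, against 17.1, 21.0 and 17.8 CPM in WT, without overlap (1.03 ± 0.26, adjusted p = 0.0646). Uqcr10, a small subunit of complex III, had 23.1, 32.3 and 42.1 CPM in KO and 13.1, 15.8 and 11.8 CPM in WT, again without overlap (1.26 ± 0.33, adjusted p = 0.065). Atp5s, known as coupling factor B and no stable subunit, had 3.96, 3.39 and 3.95 CPM in KO and 1.52, 1.64 and 2.07 CPM in WT (1.11 ± 0.30, adjusted p = 0.0725). Cox5a had 179, 213 and 319 CPM in KO, against 144, 201 and 174 CPM in WT, and its groups overlapped (0.46 ± 0.25, adjusted p = 0.290). Ndufaf3, an assembly factor of complex I, was lowest among the tested members, with 32.7, 30.6 and 44.5 CPM in KO and 37.1, 41.6 and 27.5 CPM in WT (0.02 ± 0.27, adjusted p = 0.975). Among abundant core subunits the log2 fold change was 0.26 ± 0.16 for Atp5a1, 0.42 ± 0.20 for Atp5b and 0.17 ± 0.19 for Uqcrc1, all with overlapping libraries.

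Single libraries weighed on the day 14 count. It was 19 members without WT library 3 of day 14, and 5, 3 and 4 members without KO library 1 or 2 of day 14 or KO library 4 of day 7. It was 0 without any 1 of the remaining 10 libraries. The share of all genes called in each of these fits is not given here, so the counts are not read as a result about the members. The median of the members was 0.36 without KO library 3. WT library 3 stood apart in Ndufs1, which had 81.3, 48.3 and 61.6 CPM in KO and 31.6, 15.8 and 119 CPM in WT.

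Coding length moved with the day 14 differences less closely. The Spearman correlation over the members was -0.49, and -0.44 over all genes. Members of up to 300 bases had a median of 0.84, against 0.54 for other genes, and those above 1000 and up to 2000 bases 0.32, against 0.02. Among the other genes, 88.9% of those up to 300 bases were positive and 84.0% of those above 300 and up to 500 bases. The share was 68.5% above 500 and up to 1000 bases and 51.3% above 1000 and up to 2000 bases. With the length trend removed the members' median was 0.24, against -0.01 for all genes, 74 of 86 were positive, and 1 was called (1.6% of all genes). The medians by complex were then 0.21 (I), 0.19 (II), 0.31 (III), 0.24 (IV) and 0.30 (V). Members above 1000 and up to 2000 bases were at 0.40 in that fit, and their length class was at -0.01.

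**Figure D5:**
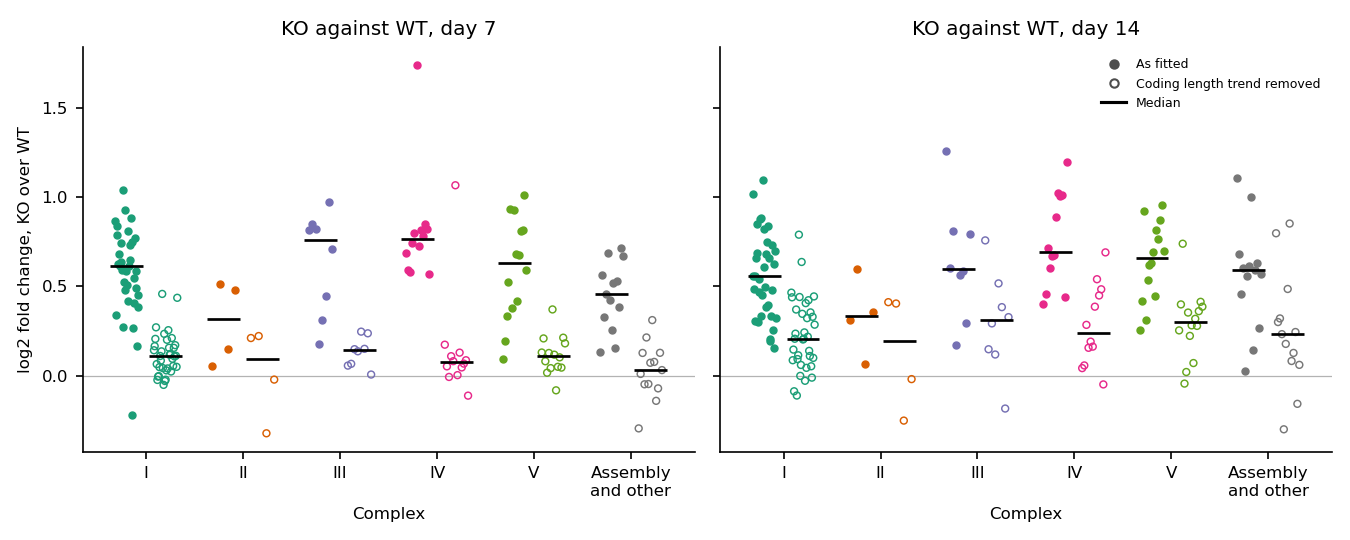
log2 fold change of KO over WT (vertical) of each tested member by complex, at day 7 and day 14, as fitted (filled) and with each library's coding length trend removed (open), with medians as lines. At day 7 the median of complex I was 0.61 as fitted and 0.11 with the trend removed, and at day 14 it was 0.56 and 0.21.

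Whether the genotype difference changed with time was tested as the interaction, KO minus WT at day 14 less KO minus WT at day 7. Of the 86 members 0 were called by edgeR, against 0.0863% of all genes (10 genes). DESeq2 and limma-voom also called 0, counts for which the share of all genes is not given here. The median was 0.02, against 0.06 for all genes, and 45 of 86 were positive (55.7% of all genes). With the coding length trend removed the median was 0.17, against 0.06 for all genes, and 62 of 86 were positive. In the fit with no trend removed 1 member, Atp5s, had an unadjusted p under 0.05, as 7.97% of all genes did (0.98 ± 0.39, adjusted p = 0.539). For Atp5c1 the interaction was 0.59 ± 0.28 (adjusted p = 0.626) and for Cox5a -0.13 ± 0.32 (adjusted p = 1.000). The interaction shares all its libraries with the comparisons above.

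Over time few members were called, and complex IV had the highest median of the 5 complexes in both genotypes. Day and inferred run go together here: all 3 KO libraries of day 14 fall in the second run and all 4 of day 7 in the first, so within KO the time and the run cannot be told apart. In WT 2 of 3 libraries of day 14 fall in the second and 3 of 4 of day 7 in the first. This holds for every day 14 over day 7 value below. With the run as a term, which only WT libraries can estimate, 0 members and 3.19% of all genes were called in KO, and 1 member and 18.5% of all genes in WT. In KO cells the median log2 fold change of day 14 over day 7 was 0.13, against 0.02 for all genes, and 58 of 86 were positive (51.3% of all genes). Without KO library 3 of day 14 that median was -0.12. It was 0.12 in complex I, -0.01 in complex II, 0.02 in complex III, 0.42 in complex IV and 0.23 in complex V over all libraries, and -0.06 among the assembly factors and other non-subunits. The test called 0 of 86 in KO by edgeR, where 15.5% of all genes were called (10.5% higher and 4.92% lower), and 7 had an unadjusted p under 0.05 (27.1% of all genes). DESeq2 called 2 and limma-voom 5, counts for which the share of all genes is not given here. In WT cells the median was 0.14, against -0.002 for all genes, and 55 of 86 were positive (49.8% of all genes). It was 0.18 in complex I, 0.01 in complex II, 0.13 in complex III, 0.37 in complex IV and 0.11 in complex V, and -0.21 among the assembly factors and other non-subunits. The test called 3 of 86 members in WT, 2 higher and 1 lower, where 20.5% of all genes were called, 13.2% higher and 7.33% lower. There were 12 members with an unadjusted p under 0.05, against 32.5% of all genes.

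Cox6b2 was called in WT cells, on very few reads. In KO cells it had 0.620, 0.791 and 1.72 CPM at day 14, against 0.129, 0.135, 0.0940 and 0.708 CPM at day 7, where library 4 overlapped (2.00 ± 0.70, adjusted p = 0.070). In WT cells it rose, with 0.595, 0.334 and 1.02 CPM at day 14, against 0.0278, 0.163, 0.0639 and 0.0418 CPM at day 7, or 16, 10 and 33 reads against 1, 5, 2 and 1 reads. The WT groups did not overlap (log2 fold change 3.07 ± 0.80, adjusted p = 0.0133). Its paralog Cox6b1 had 63.8, 65.8 and 49.1 CPM in WT at day 14, against 41.9, 37.7, 42.6 and 42.5 CPM at day 7 (0.53 ± 0.28, adjusted p = 0.201). Cox5a was at 0.54 ± 0.23 in KO (adjusted p = 0.133), with overlapping libraries. In WT it rose, with 144, 201 and 174 CPM at day 14, against 99.2, 95.6, 111 and 126 CPM at day 7 (0.68 ± 0.23, adjusted p = 0.0481).

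Ndufaf1, an assembly factor of complex I, was called lower in WT cells. In KO it had 41.1, 29.9 and 40.6 CPM at day 14, against 54.2, 58.9, 57.0 and 63.3 CPM at day 7, without overlap (-0.65 ± 0.23, adjusted p = 0.0728). In WT it fell, with 19.0, 26.5 and 35.9 CPM at day 14, against 38.6, 45.5, 45.6 and 56.5 CPM at day 7, also without overlap (-0.78 ± 0.23, adjusted p = 0.0271). Sdha in KO had 611, 611 and 584 CPM at day 14, against 899, 943, 789 and 612 CPM at day 7, where library 4 lay next to the day 14 values (-0.43 ± 0.25, adjusted p = 0.307). In WT it had 288, 513 and 655 CPM at day 14, against 607, 779, 743 and 995 CPM at day 7, with overlap (-0.69 ± 0.25, adjusted p = 0.0692). The time and genotype comparisons share libraries.

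With the length trend removed more members were called over time. The KO median was then 0.12, with 55 of 86 positive. The WT median was 0.04, with 45 of 86 positive, 0.07 in complex I, -0.13 in complex II, 0.01 in complex III, 0.23 in complex IV and -0.04 in complex V. In that fit 9 members were called in KO (8 higher and 1 lower, against 18.2% of all genes) and 9 in WT (5 higher and 4 lower, against 23.7%). Cox5a, Cox6b2, Ndufaf1 and Uqcrq were among them in both genotypes, at 0.52 in KO and 0.51 in WT for Cox5a, 2.04 in KO and 2.95 in WT for Cox6b2, and -0.65 in KO and -0.85 in WT for Ndufaf1. Uqcrq, a small subunit of complex III named after its values were seen, was at 0.89 in KO (adjusted p = 0.00401, the smallest of a member there) and 0.56 in WT (adjusted p = 0.0358). Cox7a2 in KO was at 0.55 (adjusted p = 0.0314) and Cox8a in WT at 0.56 (adjusted p = 0.0149). In the fit with no trend removed, the count in KO was 5 without KO library 4 of day 7, 3 without KO library 1 of day 14, 2 without WT library 3 of day 14 and 1 without WT library 1 of day 14. In WT it was 9 without WT library 3 of day 14, 7 without KO library 4 of day 7, and 1 without WT library 2 of day 14 or WT library 2, 3 or 4 of day 7. These counts with a library left out also stand without the share of all genes called in the same fit. The Cox5a call in WT was lost without any 1 of 10 libraries (WT 1 to 4 and KO 1 to 3 of day 7, WT 2 and 3 and KO 2 of day 14), with adjusted p from 0.0513 to 0.165. The Ndufaf1 call was lost without WT 2, 3 or 4 of day 7 or WT 1 or 2 of day 14 (0.0534 to 0.116), and with length and GC trends removed it was at -0.32 (adjusted p = 0.448). The Cox6b2 call was lost with the sequencing run as a term (adjusted p = 0.0571). Without WT library 2 of day 14 Cox5a was at 0.56 (adjusted p = 0.165), and without WT library 1 of day 14 Ndufaf1 was at -0.58 (adjusted p = 0.116).

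Other genes of mitochondrial energy metabolism were also compared between genotypes. Of 12 tested subunits encoded by mitochondrial DNA, 10 were positive at day 7 and 12 at day 14 (medians 0.33 and 0.33), and 0 were called. Their summed level was 4033 to 9206 CPM in KO and 3578 to 6673 CPM in WT at day 7, which overlapped. The 36 tested assembly factors of other names had medians of 0.36 and 0.27, the 12 genes of coenzyme Q synthesis 0.29 and 0.22, and 9 mitochondrial carriers 0.40 and 0.54. The 18 genes of the citric acid cycle had 0.02 and 0.31. Mitochondrial DNA maintenance and transcription (13 genes) had medians of 0.11 and 0.30. Their summed level went the other way, at 570 to 868 CPM in KO and 948 to 1051 CPM in WT at day 7, without overlap, and at 577 to 954 CPM in KO and 804 to 1283 CPM in WT at day 14. The 6 electron carriers and substrate dehydrogenases had 0.10 and 0.27. The 9 tested regulators of respiratory genes, among them Nrf1, were at -0.20 and -0.20. By edgeR 0 of these genes were called between genotypes at either day. With the coding length trend removed, the medians at day 7 and 14 were 0.16 and 0.07 for the mitochondrially encoded subunits. They were 0.02 and 0.08 for the assembly factors, 0.10 and 0.07 for coenzyme Q synthesis, and 0.08 and 0.36 for the carriers. The citric acid cycle had 0.08 and 0.29, and DNA maintenance and transcription -0.04 and 0.08. Electron carriers and dehydrogenases had 0.12 and 0.20, and the regulators -0.09 and -0.09.

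Over time 8 of the 115 tested genes of these 8 lists were called in KO (6.96%, against 15.5% of all genes), 4 higher and 4 lower, and 13 in WT (11.3%, against 20.5%), 6 higher and 7 lower. Both shares are below the background. Slc25a4, which exchanges ADP and ATP across the inner membrane, rose in KO (1.501 ± 0.31, adjusted p = 0.00482) and in WT (1.05 ± 0.31, adjusted p = 0.0290). Idh2, the NADP-dependent isocitrate dehydrogenase of mitochondria, fell in KO, with 92.3, 97.8 and 138 CPM at day 14 against 221, 192, 231 and 250 CPM at day 7 (-1.03 ± 0.20, adjusted p = 0.00337), and in WT (-1.41 ± 0.21, adjusted p = 0.000309). Pcx, pyruvate carboxylase, rose in both (KO 2.98 ± 0.50, adjusted p = 0.00112; WT 1.68 ± 0.48, adjusted p = 0.0233). Cmc2, which takes part in complex IV assembly, rose in both as well (KO 1.28 ± 0.29, adjusted p = 0.00804; WT 1.06 ± 0.29, adjusted p = 0.0199). Coq3, a methyltransferase of coenzyme Q synthesis, rose in WT (1.102 ± 0.25, adjusted p = 0.00652), and mt-Nd6 of complex I fell there (-1.11 ± 0.35, adjusted p = 0.0393).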

How the data were processed

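For each library the authors' table gives, per the file headers, raw counts and RPKM for every gene. The submitters' processing notes name GSNAP 2013-11-01 and GRCm38. The counter, gene annotation and use of strand are not stated in these sources. Groups and replicate numbers came from sample titles. The deposited RPKM values were not tested. Symbols, coordinates and coding sequence came from GENCODE vM21 (22457 of 22598 identifiers matched). Coding length is the deposited width, which matched coding sequence with the stop codon for most members.

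Counts were kept by filterByExpr (11591 genes), scaled by TMM and fitted with edgeR 4.0.16 (R 4.3.3; robust quasi-likelihood, 1 mean per group, all 14 libraries, common biological coefficient of variation 0.354). Calls have a Benjamini-Hochberg adjusted p under 0.05 over all genes tested. CPM use TMM-scaled totals. Of the members 86 were tested; Cox6a2, Cox7a1, Atp5g2 and Atp5l did not pass the filter. The SE is the log2 fold change divided by the square root of F. Length trends are natural splines with 5 degrees of freedom per library, used as offsets. Alternatives were other scaling and filters, DESeq2 1.42.0, limma-voom 3.58.1, a replicate block, the run and leaving libraries out. The fits were tested on simulated data. Floors (3 reads) cover counting error only. The members and lists were chosen with earlier results of these data known. Named members are the markers Atp5c1 and Cox5a, called members, the 3 highest per kilobase and the highest and lowest fold changes of each class, and alternative isoforms; Uqcrb, Ndufb4, Atp5l and Cox7c were named after their values were seen. Replicate numbers were not used as pairs in the main fit: 7 of 19 same-numbered pairs and 21 of 54 different-numbered pairs correlated above 0.1.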

Additional observations from a re-analysis of the deposited data

Results flagged for a closer look

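Among 88 groups of values examined, 4 held a library whose gap to its nearest neighbour passed Dixon's limit, and chance flags about 1 in 20 groups. Cox6b2 in KO library 4 of day 7 was at 0.708 CPM, against 0.0940 to 0.135 CPM in the other KO libraries of day 7. Cox6a2 in WT library 3 of day 7 was at 0.0958 CPM, or 3 reads, with the other WT libraries of day 7 at 0. Cox6b1 in WT library 2 of day 7 was at 37.7 CPM, against 41.9 to 42.6 CPM in the others. The share of reads from genes of mitochondrial DNA in WT library 4 of day 7 was 0.348%, against 0.624% to 0.658%. No cause was tested for these values.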

How the results depend on the processing

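Both the calls of single members and their median log2 fold changes depended on the processing. Between genotypes at day 7, edgeR called 0 members (0.0949% of all genes), DESeq2 11 (4.42%) and limma-voom 70 (43.5%). The median was 0.0897 with the coding length trend removed and 0.0710 with length and GC removed. At day 14 edgeR called 1 member (1.42% of all genes), DESeq2 13 (8.57%) and limma-voom 16 (16.7%). The fit of the compared libraries called 0, the run term 0, and the fit without length and GC trends 2. The median was 0.24 without the length trend and 0.23 without both. Over time in KO edgeR called 0 (15.5% of all genes) and the fit without the length trend 9 (18.2%). DESeq2 called 2, limma-voom 5, and the fit without length and GC trends 11. Over time in WT edgeR called 3 (20.5% of all genes) and the fit without the length trend 9 (23.7%). DESeq2 called 6, limma-voom 19, the fit without length and GC trends 15, and the run term 1. Without both KO library 4 of day 7 and WT library 3 of day 14, chosen after seeing the data, the counts were 24 at day 14, 11 over time in KO and 15 in WT. A count with no share of all genes beside it is not read as a result about the members. Cox5a at day 14 turned to -0.0043 (adjusted p = 0.992) with length and GC trends removed. The cause of these differences was not tested.

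Leaving out 1 library at a time gave medians of 0.43 to 0.69 at day 7, 0.36 to 0.69 at day 14, -0.12 to 0.26 over time in KO, 0.10 to 0.21 in WT and -0.23 to 0.18 for the interaction, so that the KO time median turned its sign without KO library 3 of day 14, and the interaction median without any 1 of 6 libraries (KO 3, WT 1 and WT 3 of day 14, KO 1, KO 2 and WT 4 of day 7). Called members ran from 0 to 0, 0 to 19, 0 to 5, 1 to 9 and 0 to 0 in the same order. With the replicate number as a block, 3 members were called over time in KO and 6 in WT, and no other count of calls changed. For the fits in this paragraph the share of all genes called is not given, so their counts are not read as a result about the members. Same-numbered samples correlated from -0.456 to 0.417 (median 0.049), and different-numbered samples from -0.437 to 0.555 (median 0.011). These values cannot show whether same-numbered samples share a mouse or culture.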
